A study of Mus musculus with 28 samples.

Results

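Primary bone marrow monocytes of Trem1-/- and WT mice were profiled at rest with a NanoString panel, and they made up 6 of the 28 samples of the series. They were taken by their labels, which name them as primary monocytes from bone marrow. The Trem1-/- group held 3 non-manipulated C57BL/6 Trem1-/- mice and the WT group 3 non-manipulated C57BL/6 WT mice. All targets with values in these samples are described. The other samples were donor monocytes recovered at day 1 after transfer into C57BL/6 CCR2-/- recipients. They came from the control (non-manipulated) small intestine, with 5 samples from Trem1-/- donors and 5 from WT donors, or from an inflamed one that had been operated on before the transfer, with 7 from Trem1-/- donors and 5 from WT donors. The labels put day 1 on the marrow samples as well, although these cells were not transferred. The age of the mice, the isolation of the marrow monocytes, their number per sample and the design of the Trem1 allele were not given in the sources used here. Nothing in the labels says that the Trem1-/- gene deletion was restricted to monocytes.

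Monocytes are made in the bone marrow from progenitors that depend on the receptor CSF1R, and they leave it for the blood through the chemokine receptor CCR2. In tissue they take on features of macrophages or of antigen-presenting cells and make cytokines when their pattern recognition receptors are engaged. TREM1 is an activating receptor of monocytes and neutrophils that signals through the adaptor TYROBP and amplifies inflammatory responses. Before they meet a stimulus, monocytes carry the machinery of that response, and the marrow samples show its level with and without Trem1.

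The panel named 72 targets, and 55 of them, housekeeping genes left out, had values in all samples. The probe for Trem1 itself (transcript NM_021406.5, positions 1705 to 1804) was blank in all marrow samples, so the genotype of these mice was not checked against Trem1. Retnla, an alternative activation gene, was blank there too, and 10 further targets were blank in every sample. Total gene counts ran from 1165758 to 1465470 in Trem1-/- marrow and from 1205501 to 1625959 in WT marrow. The background limit, the mean of 5 negative control probes plus 2 SD, ran from 44.4 to 59.0 counts in Trem1-/- marrow and from 34.2 to 54.0 in WT marrow. Levels below are normalised counts, scaled by Actb, Gapdh and Rpl19. Since probes differ in efficiency and the cDNA was pre-amplified, the level of 1 target is not set against that of another. A normalised count per sample cannot tell fewer cells of a type from less RNA per cell.

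Features of the libraries touched several results. In both genotypes the deposited values of mouse 1 were whole counts, and those of mice 2 and 3 were whole counts times 1.33 or 1.333. The multiplier was divided out, but the classes it defines, 4 multiplied and 2 unmultiplied marrow samples, are followed below. Over log2 levels, Trem1-/- mouse 2 correlated with WT mouse 3 at r = 0.983 and with its own group's mouse 1 at 0.939. Trem1-/- mouse 1 correlated with WT mouse 1 at 0.968. WT mouse 2 stood apart from the other marrow samples, with the highest level of 31 of 54 targets, against 0 to 10 in each of the other samples. The positive control probes had a geometric mean of 1004 ± 197 counts in Trem1-/- marrow and 729 ± 213 in WT marrow (SD, n = 3 each). A two-sided exact permutation test gave p = 0.3 for that difference, 0.4 for the background limit, 0.7 for the total gene count and 0.3 for the housekeeping level, where 3 against 3 cannot go below 0.1.

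Most of the panel was detected in resting marrow monocytes. In the 6 marrow samples 50 of 55 targets lay above background in every sample, and 4 more in some of them. Cxcl11 and Vegfa were above background in 5 of 6, Il6 in 4 and Itgax, the integrin chain of CD11c, in 3. Ccl7, a monocyte attractant, was above background in 0 of 6, so its level was not detectable at this depth. Across the marrow samples 7 targets spanned less than 2-fold (Trem2, Itgb7, Tgfb1, Arg1, Ccl8, Stat6 and Ccl7). A span of over 10-fold was seen for 8 (H2-Ab1, Siglec1, Cxcl10, Cx3cr1, Cxcl11, Vegfa, Adgre1 and Cd44).

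The label of monocytes was read beside 13 markers, of which 8 had values. All 8 were above background in all 6 marrow samples, but so were 50 of the 55 targets with values. Detection of these markers therefore could not test the label. Ccr2, the receptor for exit from marrow, stood at 98180, 100766 and 112253 in Trem1-/- mice 1, 2 and 3, against 56092, 141507 and 125409 in WT mice 1, 2 and 3. The Trem1-/- values lay inside the WT range. Csf1r, the growth factor receptor of the lineage, stood at 9383, 14301 and 14230 in Trem1-/- mice, against 10012, 44069 and 13362 in WT mice, where only mouse 2 lay above the rest. Spi1, the lineage transcription factor PU.1, stood at 42049, 29756 and 28297 in Trem1-/- mice, against 60756, 80790 and 34568 in WT mice. The groups overlapped through WT mouse 3. Cd14, the lipopolysaccharide co-receptor, ran from 3553 to 7521 in Trem1-/- and from 5032 to 15922 in WT marrow. Fcgr1, the high-affinity IgG receptor, Cebpb, a myeloid transcription factor, and Ly6c1 were also on the list. Ly6c1 ran from 4423 to 10721 in Trem1-/- and from 5288 to 12384 in WT marrow; whether its probe also reads the closely related Ly6c2 was not tested.

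Markers of other myeloid cells were read beside these. Of 9 dendritic cell markers 5 had values, and their summed level ran from 2144 to 6425 in Trem1-/- marrow and from 3857 to 22287 in WT marrow. Itgax, a defining marker, was at 31.2, 13.6 and 49.3 in Trem1-/- mice and at 43.6, 23.9 and 20.5 in WT mice, near the background limits. Flt3 and Zbtb46 were blank. Of 12 macrophage markers 7 had values, with sums from 20556 to 53213 in Trem1-/- marrow and from 18270 to 77632 in WT marrow. Such sums mainly follow the probes with the highest counts and do not weigh the markers against each other. In WT mouse 2, H2-Ab1 at 9972 and Irf4 at 9793 gave most of the dendritic cell sum. Csf1r at 44069 and Cd68 at 19022 gave most of the macrophage sum there. Trem2, a lipid-sensing receptor of the TREM family, was steady at 3858, 4067 and 3468 in Trem1-/- mice, against 2992, 3791 and 2740 in WT mice. Mrc1, the mannose receptor of tissue macrophages, ran only from 54.4 to 158.0 over all 6 samples. None of the listed neutrophil or lymphocyte markers was on the panel, so 0 markers of either bore on the samples.

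Secreted mediators of inflammation ranged from near background to far above it. Tnf was at 15628, 6482 and 8220 in Trem1-/- mice, against 24073, 15383 and 4895 in WT mice. The highest value of either group was that of mouse 1. Il1b ran from 617.1 to 1898 in Trem1-/- and from 712.7 to 2682 in WT marrow. Il23a, a chain of interleukin 23, ran from 71.0 to 148.5 in Trem1-/- and from 43.6 to 107.6 in WT marrow. Il1a, an alarmin-type cytokine, was at 58.7, 56.4 and 49.99 in Trem1-/- mice, against 96.8, 100.8 and 64.0 in WT mice. These values do not overlap, but both groups lay within a few-fold of the background limits. Among chemokines, Ccl2, the CCR2 ligand, ran from 775.0 to 1949 in Trem1-/- and from 543.9 to 1638 in WT marrow. Ccl22 ran from 383.5 to 908.3 in Trem1-/- and from 558.5 to 1070 in WT marrow, and Cxcl1 ran from 80.2 to 217.8 over all 6 samples.

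Receptors and signalling proteins of microbial sensing all had values above background. Nfkb1, a subunit of NF-kappaB, stood at 32843, 20501 and 19741 in Trem1-/- mice, against 40397, 42697 and 22458 in WT mice. Card9, an adaptor downstream of ITAM-coupled receptors, stood at 38440, 22860 and 18824 in Trem1-/- mice, against 42821, 38523 and 22274 in WT mice. Traf6, a ubiquitin ligase of Toll-like receptor signalling, ran from 6784 to 17923 in Trem1-/- and from 7392 to 20467 in WT marrow. All 3 genes were highest in mouse 1 among the Trem1-/- samples and lowest in mouse 3 in both genotypes. Tlr4, the lipopolysaccharide receptor, ran from 5964 to 7943 in Trem1-/- and from 7199 to 13651 in WT marrow. Tlr2 stayed between 45.3 and 136.7 in all 6. The gut-homing integrin chain Itgb7 was at 28586, 23003 and 24341 in Trem1-/- mice, against 26597, 34683 and 23698 in WT mice. Genes of alternative activation and repair are given each by its own range. Chil3, a chitinase-like protein of monocytes, ran from 101097 to 174447 in Trem1-/- and from 117451 to 218532 in WT marrow. Tgfb1 ran from 62908 to 71247 in Trem1-/- and from 70667 to 94862 in WT marrow. Arg1, which breaks down arginine, stayed between 50.7 and 87.1 in all 6.

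The genotype comparison asked whether loss of Trem1 was accompanied by a different resting profile. No target passed the threshold: edgeR's quasi-likelihood test with Benjamini-Hochberg adjustment called 0 of 54 (0%), and 3 (5.56%) had an unadjusted p under 0.05. DESeq2 called 2. Of the 54 log2 fold changes, 40 (74.1%) lay below 0 and 14 (25.9%) above, with a median of -0.31. That median rests on the scaling: it was 0.05 with TMM factors, 0.04 with DESeq2, -0.06 with total counts, -0.44 without Rpl19, -0.64 with positive-control scaling and 0.04 in the authors' table. It also rests on WT mouse 2, without which it was -0.0049. Rpl19 was at 8101 normalised counts in WT mouse 1, against 2738 to 3963 in the other marrow samples. In 4 targets (7.41%) every Trem1-/- value lay below every WT value, among them H2-Ab1, Il1a and Stat6, and in 0 (0%) every Trem1-/- value lay above.

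**Figure D1:**
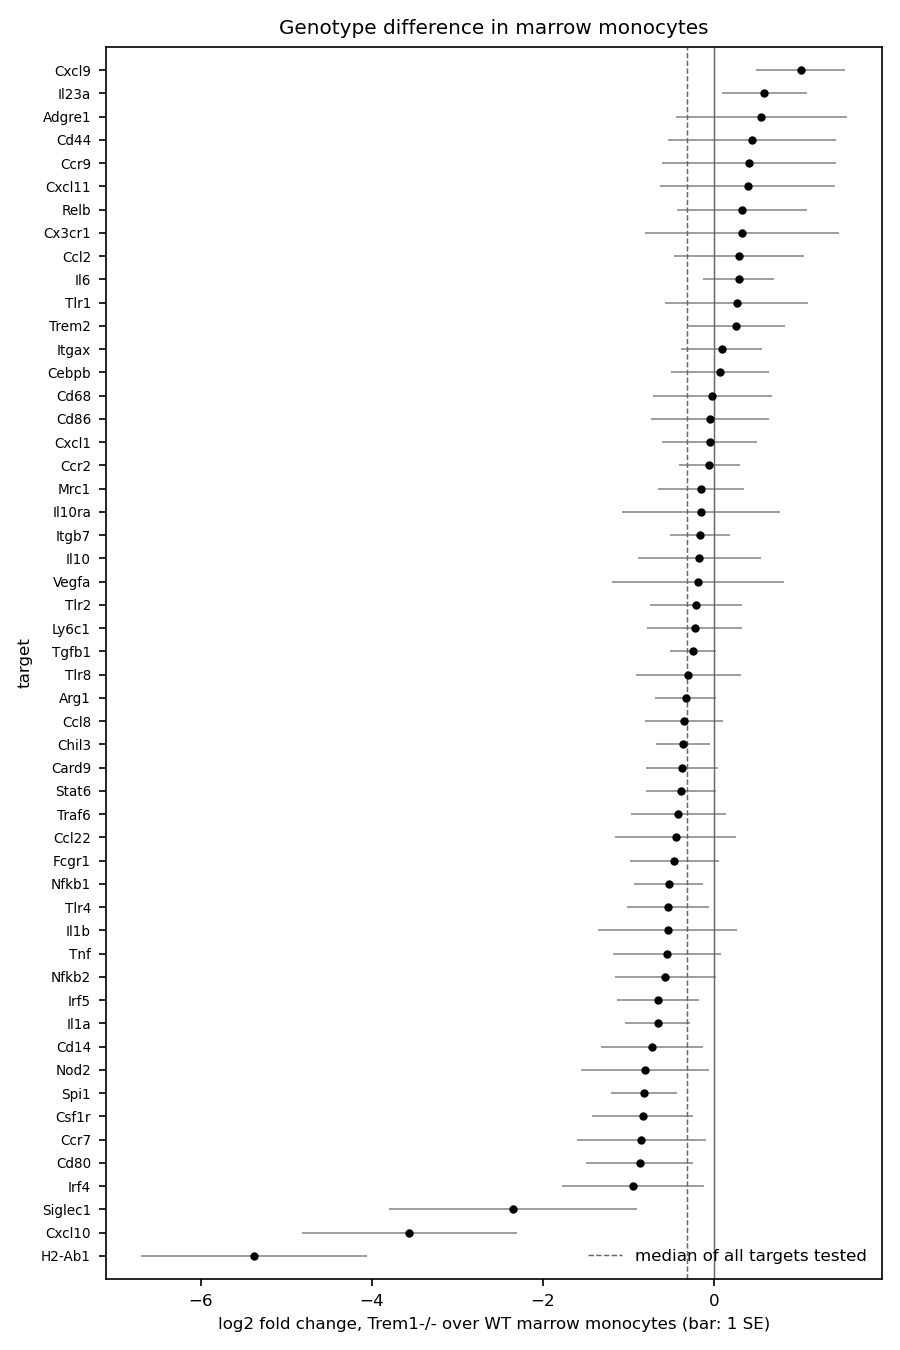
Log2 fold change of 52 of the 54 targets tested, Trem1-/- over WT marrow monocytes, with 1 SE of the edgeR fit as bars and 3 mice in each group. H2-Ab1, Cxcl10 and Siglec1 lie at the low end, and the dashed line is the median of -0.31 over all targets tested; none passed the threshold.

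H2-Ab1 showed the lowest value of the comparison. It encodes a chain of MHC class II, which presents peptides to helper T cells (transcript NM_207105.2, positions 165 to 264). It stood at 151.7, 80.2 and 76.4 in Trem1-/- mice 1, 2 and 3, against 2695, 9972 and 227.1 in WT mice 1, 2 and 3. The Trem1-/- mice lay close together and near the background limits, while WT mice 1 and 2 were far above and WT mouse 3 only slightly above. The means were 102.8 ± 42.4 in Trem1-/- and 4298 ± 5066 in WT marrow (SD, n = 3 each). The log2 fold change was -5.38 (SE 1.32, edgeR adjusted p = 0.144), with -8.02 and -2.73 at 2 SE to either side. With mouse number as a block it was -4.20 (adjusted p = 0.104). Among 23 alternatives it passed in 7, with values between -6.01 and -3.82 in all 23 and an adjusted p from 6.98e-06 (DESeq2) to 0.831 (without WT mouse 2). Without WT mouse 2 the value was -3.82.

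The other members of the antigen presentation list did not share the size of that difference. Cd80 and Cd86, ligands for the T cell receptor CD28, gave -0.87 (SE 0.63) and -0.04 (SE 0.69). Cd80 was at 2567, 2537 and 2584 in Trem1-/- mice, against 5548, 6159 and 2316 in WT mice. The Trem1-/- values lay close together, and WT mouse 3 fell just below them. All 3 members lay below 0, with a median of -0.87, against 40 of 54 below 0 and a median of -0.31 over all targets tested. The dendritic cell markers other than H2-Ab1 summed to 1993, 2683 and 6348 in Trem1-/- mice 1, 2 and 3, against 4031, 12314 and 3630 in WT mice 1, 2 and 3. WT mouse 2 had the highest sum, and the groups overlapped. Irf4, a transcription factor of dendritic cells and alternative activation, stood at 1126, 1825 and 4704 in Trem1-/- mice, against 2291, 9793 and 2673 in WT mice. Its log2 fold change was -0.95 (SE 0.83), and 0.04 without WT mouse 2. Ccr7, the receptor that guides cells to lymph nodes, gave -0.85 (SE 0.75). The part of other cells in the H2-Ab1 difference was not tested.

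Cxcl10 and Siglec1 were highest in 1 WT mouse. Cxcl10, a chemokine for activated T cells (transcript NM_021274.1, positions 116 to 215), was at 633.1, 810.6 and 784.8 in Trem1-/- mice, against 1188, 24319 and 771.1 in WT mice. Only WT mouse 2 lay far from the rest. The log2 fold change was -3.56 (SE 1.26, edgeR adjusted p = 0.367). It was -0.40 without WT mouse 2 and -1.70 (adjusted p = 0.719) with mouse number as a block. Cxcl10 passed in 3 of 23 alternatives, which were DESeq2, scaling by positive controls and the fit without WT mouse 1, and its adjusted p ran from 0.00724 to 0.995 over the 23.

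Siglec1, the sialic acid receptor CD169, was at 204.3, 1030 and 374.9 in Trem1-/- mice, against 285.9, 7799 and 127.2 in WT mice. Its log2 fold change was -2.35 (SE 1.45, edgeR adjusted p = 0.843), and it turned to 1.37 without WT mouse 2. Cxcl9, a further T cell chemokine, lay the other way, at 100.3, 72.8 and 202.1 in Trem1-/- mice, against 49.96, 48.7 and 86.2 in WT mice. Its log2 fold change was 1.01 (SE 0.52, edgeR adjusted p = 0.843), and it was not high in WT mouse 2.

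**Figure D2:**
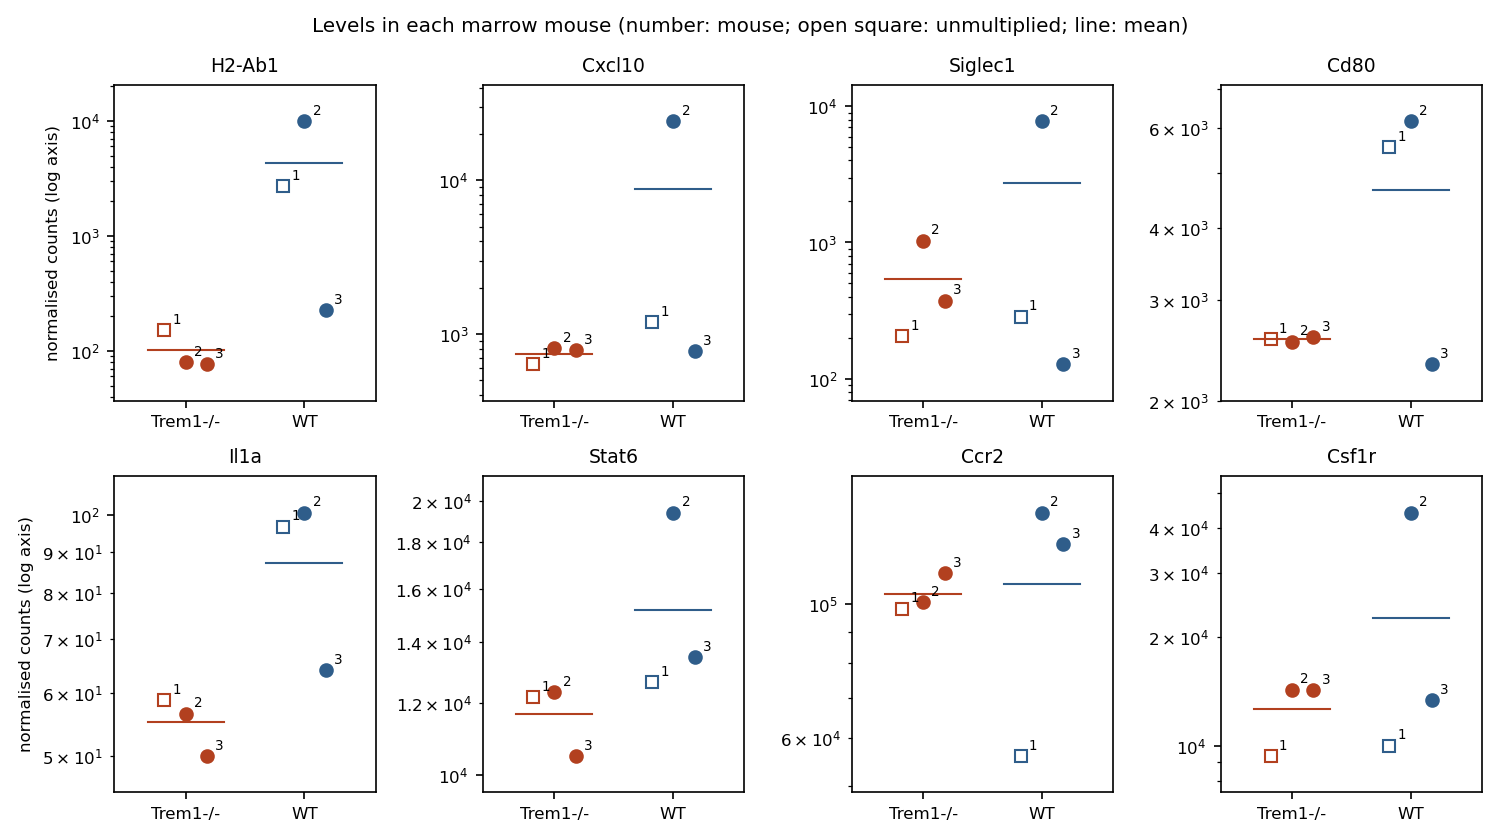
Normalised counts on a log axis in each marrow mouse for 8 targets, with Trem1-/- on the left and WT on the right; the number beside a point is the mouse, open squares are the unmultiplied samples and lines are group means. WT mouse 2 is the highest point in all 8 panels, and in the H2-Ab1, Il1a and Stat6 panels all 3 Trem1-/- points lie below all 3 WT points.

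The promoter of Cxcl10 is shown because its level separated WT mouse 2 from the other samples. The sequence is from RefSeq on GRCm38.p6, chr5:92348840-92349139, minus strand, and covers 250 bases before to 50 after the transcript start. Capitals mark matches to 2 motifs searched on both strands, the core of the interferon-stimulated response element (GAAA, any 2 bases, GAAA) from -213 to -204 and an NF-kappaB site (GGGANTTCC) from -103 to -95; they do not overlap each other. Cxcl10: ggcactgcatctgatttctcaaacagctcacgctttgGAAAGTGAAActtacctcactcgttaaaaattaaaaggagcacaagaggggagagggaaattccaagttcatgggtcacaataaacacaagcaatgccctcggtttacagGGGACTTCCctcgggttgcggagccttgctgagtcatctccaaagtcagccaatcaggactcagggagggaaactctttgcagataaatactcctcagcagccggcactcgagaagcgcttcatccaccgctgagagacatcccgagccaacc
The first motif was held by 3.44% of 32851 promoters of the same length and the second by 1.68%. Other forms of either motif were not searched, so the capitals need not mark every site. A match is a description of these letters and shows neither binding nor activity in the samples. H2-Ab1 and Siglec1 are named without a promoter.

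The remaining lists held no call in the genotype comparison. Of the 8 monocyte identity markers 7 lay below 0, with a median of -0.53, from Csf1r at -0.83 (SE 0.59) to Cebpb at 0.08 (SE 0.57). Csf1r was 0.11 without WT mouse 2. Ccr2 gave -0.05 (SE 0.35), with -0.76 and 0.65 at 2 SE to either side. Of the 11 members of pattern recognition and its signalling 9 lay below 0, with a median of -0.41, and Nod2, a sensor of bacterial cell walls, was lowest at -0.81. Card9 gave -0.37 (SE 0.42) and Trem2 0.26 (SE 0.57), the only measured members of the TREM pathway list. Of the 6 myeloid transcription factors 5 lay below 0, with a median of -0.74. Spi1 gave -0.82 (SE 0.39, edgeR adjusted p = 0.843). Stat6, which carries the interleukin 4 signal, was at 12166, 12330 and 10484 in Trem1-/- mice, against 12644, 19402 and 13465 in WT mice. The groups did not overlap, but its log2 fold change was -0.38 (SE 0.41) and turned to 0.02 with TMM scaling.

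Alternative activation and repair had 8 of 8 members below 0, with a median of -0.29, close to the -0.31 of all targets. For cytokines the count was 3 of 5 (median -0.54), with Il1a at -0.66 (SE 0.38), the lowest, and Il23a at 0.59 (SE 0.50), the highest. For chemokines it was 4 of 7 (median -0.05), for receptors and integrins of homing 4 of 7 (median -0.05) and for macrophage markers 4 of 7 (median -0.02). For the interleukin 10 and TGF-beta pathway it was 3 of 3 (median -0.17). These counts share members, lie on a background of 74.1% below 0 and move with the scaling, so none is given as a shift of its list.

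More targets passed between the multiplier classes than between the genotypes. In a fit with genotype and class together, chosen after the data were seen, 10 of 54 targets (18.5%) were higher in the 4 multiplied than in the 2 unmultiplied samples and 0 (0%) were lower. Mouse 1 of each genotype is the unmultiplied one, so that class and mouse number cannot be told apart. Cx3cr1, the fractalkine receptor of patrolling monocytes and macrophages, was at 4853 and 8907 in the multiplied Trem1-/- and 4672 and 6323 in the multiplied WT samples, against 461.8 in the unmultiplied Trem1-/- and 340.9 in the unmultiplied WT sample. The log2 fold change was 3.95 (SE 0.53, edgeR adjusted p = 0.00632), while the genotype difference of the same gene was 0.33 (SE 1.14). Adgre1, which encodes the macrophage marker F4/80, was at 5581 and 4687 in the multiplied Trem1-/- and 2951 and 4234 in the multiplied WT samples, against 800.0 and 345.3 in the unmultiplied Trem1-/- and WT samples. Its log2 fold change was 3.01 (SE 0.49, edgeR adjusted p = 0.011).

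Cd68, a lysosomal protein of macrophages, was higher by 2.05 and Il10ra, the interleukin 10 receptor chain, by 2.46 on the log2 scale. With Cx3cr1 and Adgre1 they make 4 of the 7 macrophage markers tested, where 18.5% of all targets passed as higher. The adhesion receptor Cd44 was higher by 2.75, the gut-homing receptor Ccr9 by 2.76 and the chemokine Cxcl11 by 3.27. The Toll-like receptors Tlr1 and Tlr8 were higher by 1.92 and 1.55, and the NF-kappaB subunit Relb by 1.78. Groups did not overlap in 18 targets (33.3%) with the multiplied samples higher and in 2 (3.70%) with them lower, which were Tnf and Traf6. Leaving out Trem1-/- mouse 1 or WT mouse 1, which leaves 1 unmultiplied sample, gave 0 calls, and leaving out WT mouse 2 gave 11 higher and 6 lower. Scaling by positive controls left 1 call, and scaling without Rpl19 left 5. DESeq2 called 11 higher and 5 lower and TMM scaling 8 higher and 4 lower, so that targets lower in multiplied samples appeared under other scalings.

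**Figure D3:**
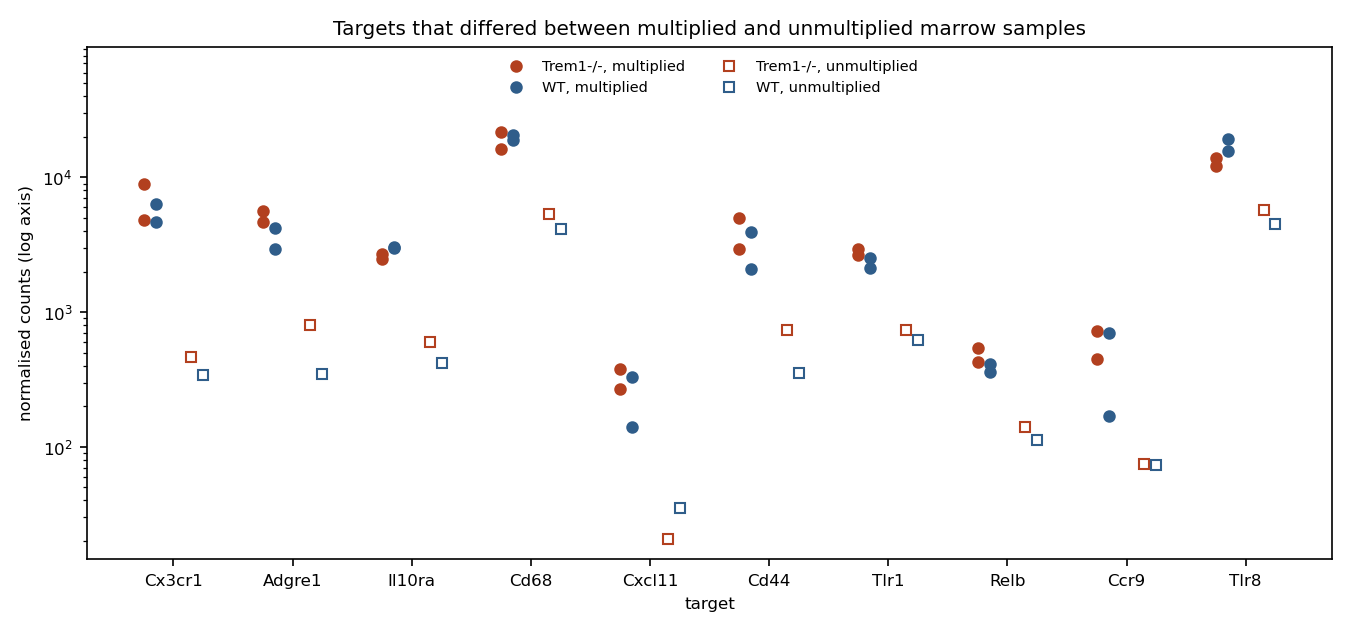
Normalised counts on a log axis of the 10 targets past the threshold between multiplied samples (filled circles, mice 2 and 3) and unmultiplied samples (open squares, mouse 1), Trem1-/- in red and WT in blue. In each target both open squares lie below all 4 circles, with the largest log2 fold change in Cx3cr1 and the smallest in Tlr8.

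The multiplier classes were also read in the intestinal samples, where 10 were multiplied and 12 were not. The split was not the same there as in marrow. WT inflamed mouse 5 was multiplied by 2, and in the multiplied WT intestinal samples the control probes were multiplied too. Nor was mouse 1 alone unmultiplied: in WT control intestine mice 1, 2 and 5 were. With the group in the fit, 15 of 55 targets passed (27.3%), 13 (23.6%) higher in the multiplied ones and 2 (3.64%) lower. Of the 10 marrow targets, 5 were called higher there too (Adgre1, Ccr9, Cd44, Cd68 and Il10ra), which is 50% of the marrow calls and 38.5% of the intestinal ones higher. The intestinal log2 differences were 1.72 for Adgre1, 1.53 for Cd68, 1.07 for Cd44, 1.05 for Il10ra and 0.89 for Ccr9. Cxcl11 had -0.38 there. With the class as a block, the genotype comparison in marrow had 0 calls and H2-Ab1 gave -5.40 (adjusted p = 0.237). Within the multiplied samples alone, 2 against 2 mice, H2-Ab1 gave -6.01 (adjusted p = 0.658), and between the unmultiplied samples the values of 151.7 in the Trem1-/- and 2695 in the WT mouse differ by -4.15 on the log2 scale, with no test.

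The marrow cells were set against donor-derived cells of the control intestine to place the resting profile. In the 28-sample fit 26 of 55 targets (47.3%) passed, 3 (5.45%) higher and 23 (41.8%) lower in marrow, and the median log2 fold change was -0.57. Source, transfer, sorting and recipient differ together in this comparison. The split depends on the scaling: TMM and DESeq2 each gave 16 higher and 16 lower. Total counts gave 8 and 17, positive-control scaling 8 and 14, and the authors' normalised values 18 higher and 8 lower. The median moved to -0.09 with TMM, 0.15 with DESeq2, -0.23 with total counts, -0.03 with the positive controls, -0.32 without Rpl19 and 0.56 in the authors' values. The 8 other scalings counted here include DESeq2, which also changed the test, and the authors' values, which were tested with limma. Neither of these isolates the scaling. Under all 8 other scalings 2 targets passed as higher, Chil3 among them, and 8 as lower. Those lower were Il1a, Il1b, H2-Ab1, Itgax, Cd14, Cxcl9, Cxcl10 and Vegfa. A further 6 of those called lower had the opposite sign under at least 1 scaling (Tgfb1, Spi1, Nfkb2, Ccl22, Fcgr1 and Cxcl1).

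Cytokines of the interleukin 1 family were far lower in marrow. Il1a ran from 49.99 to 100.8 in the 6 marrow samples (median 61.4) and from 1353 to 14633 in the 10 control-intestine samples (median 8086). The log2 fold change was -6.86 (SE 0.41, edgeR adjusted p = 1.54e-13). Il1b ran from 617.1 to 2682 in marrow (median 1104) and from 10975 to 71535 in control intestine (median 38328), and gave -4.95 (SE 0.44, adjusted p = 3.13e-10). Neither gene's groups overlapped. Tnf, at -1.55 (SE 0.43), passed as well but lost its call in 4 of 8 other scalings. Of the 5 inflammatory cytokines tested 3 were lower and 0 higher, with a median of -1.55, against 41.8% lower, 5.45% higher and a median of -0.57 over all targets. Il6 (-1.21) and Il23a did not pass.

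All 3 antigen presentation genes tested passed as lower in marrow, where 41.8% of all targets did. H2-Ab1 ran from 76.4 to 9972 in marrow (median 189) and from 58646 to 159722 in control intestine (median 97968). Even WT marrow mouse 2 lay below every intestinal sample, and the log2 fold change was -7.27 (SE 0.90, edgeR adjusted p = 1.73e-07), and -8.04 without that mouse. Cd80 was lower by 1.81 (SE 0.26) and Cd86 by 1.76 (SE 0.38) on the log2 scale. Both passed in 7 of 8 other scalings. In the authors' values they gave -0.69 and -0.54 and did not pass. Of the 5 dendritic cell markers tested 4 were lower, on the same background of 41.8%. The 5 summed to 2144 to 22287 in marrow, against 65756 to 165971 in control intestine. H2-Ab1 gave most of the control-intestine counts, so that sum mainly follows 1 probe and does not weigh the markers against each other. Itgax ran from 13.6 to 49.3 in marrow and from 725 to 7794 in control intestine (log2 fold change -6.96, SE 0.74). Since marrow counts of Itgax, at 20 to 69, lay at the background limit, the size of that difference is uncertain. Ccr7 gave -1.97 (SE 0.45).

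Of 8 chemokines 6 passed as lower in marrow, where 41.8% of all targets tested did. Ccl7 is one of the 6, but it was above background in 0 of 6 marrow samples, at 20.2 to 37.6, against 34.1 to 442.2 in control intestine, so no fold is given for it. Cxcl9 ran from 48.7 to 202.1 in marrow, against 104 to 6512 in control intestine, and gave -4.96 (SE 0.97, edgeR adjusted p = 0.000155). Cxcl10 gave -3.36 (SE 0.71), and -4.94 without WT marrow mouse 2, through which the sources overlapped, and Ccl2 gave -1.63 (SE 0.28) with none. Cd14 was lower too, at 3553 to 15922 in marrow (median 6880), against 40183 to 97593 in control intestine (median 57616), and its log2 fold change was -3.01 (SE 0.26, edgeR adjusted p = 3.13e-10). Arg1 gave -3.11 (SE 0.76), with a marrow maximum of 87.1 just under the lowest control-intestine value of 87.6, and -2.24 without WT control mouse 5. Vegfa, the vascular growth factor, gave -3.12 (SE 0.74), and -3.73 without WT marrow mouse 2 or without Trem1-/- marrow mouse 3.

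Chil3 was higher in marrow, at 101097 to 218532 (median 160907), against 32556 to 144900 in control intestine (median 58968). The log2 fold change was 1.24 (SE 0.29, edgeR adjusted p = 0.000834). The sources overlapped through 1 high intestinal sample. Card9 gave 0.53 (SE 0.20, adjusted p = 0.0317). It was 0.26 (adjusted p = 0.341) with the multiplied marrow samples alone. It also lost its call when WT marrow mouse 1 or 2, Trem1-/- marrow mouse 1, WT control mouse 4 or Trem1-/- control mouse 4 or 5 was left out. Among the 8 monocyte identity markers 3 passed as lower (Cd14, Fcgr1 and Spi1), where 41.8% of all targets tested did. Fcgr1 and Spi1 had the opposite sign under at least 1 other scaling. Ccr2 at 0.31 and Csf1r at -0.50 were not past the threshold. Csf1r passed as lower, at -0.98 (adjusted p = 0.0169), without WT marrow mouse 2. The macrophage marker list had 0 of 7 calls, where 47.3% of all targets were called, but this rests on the scaling. With TMM, DESeq2 or the authors' values, Adgre1, Cx3cr1, Cd68 and Trem2 passed as higher in marrow. Mrc1, Csf1r and Il10ra did not pass under any of these.

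**Figure D4:**
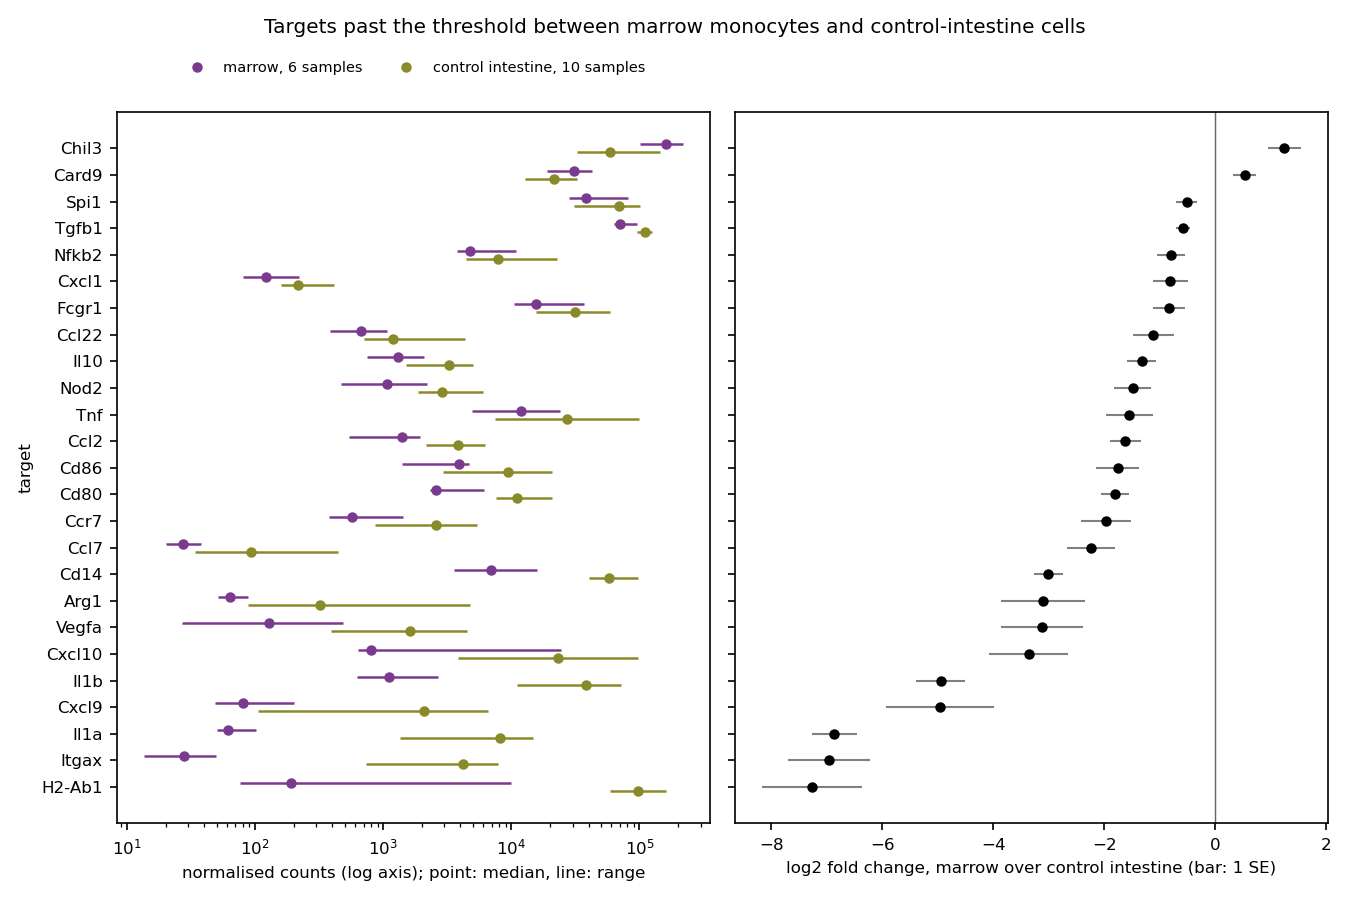
25 of the 26 targets past the threshold, with the median and range of normalised counts on a log axis in marrow (purple, 6 samples) and control intestine (olive, 10 samples) on the left, and the log2 fold change of marrow over control intestine with 1 SE on the right. H2-Ab1, Itgax, Il1a, Cxcl9 and Il1b lie furthest below 0, and Chil3 and Card9 lie above it. The Ccl7 point rests on marrow levels that were not above background.

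The genotype difference in marrow was then tested against that in the intestine, as a difference of differences in the fit of 28 samples. That fit shared its spread per target between marrow and intestinal samples, so its p-values do not rest on the marrow mice alone. Against the control intestine 1 of 55 targets (1.82%) passed. H2-Ab1 differed by -5.37 between Trem1-/- and WT marrow and by -0.34 between Trem1-/- and WT control-intestine cells, where it averaged 91301 ± 35789 in Trem1-/- and 115620 ± 30823 in WT cells (SD, n = 5 each). The interaction was -5.03 (SE 1.33, edgeR adjusted p = 0.0458). It passed in 10 of 33 alternatives. Without WT marrow mouse 2 the value was -3.48 (adjusted p = 0.600).

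Against the inflamed intestine 3 of 55 (5.45%) passed, all with a lower marrow difference. H2-Ab1 gave -5.18 (SE 1.32, edgeR adjusted p = 0.0219), since the inflamed-intestine difference was -0.20. Cxcl10 gave -4.83 (SE 1.27, adjusted p = 0.0219). It differed by -3.56 between Trem1-/- and WT marrow and by 1.27 between Trem1-/- and WT inflamed-intestine cells, at 55388 ± 32944 in Trem1-/- (n = 7) and 22912 ± 10133 in WT cells (n = 5). Il10, the anti-inflammatory cytokine, gave -1.70 (SE 0.49, adjusted p = 0.0327). In marrow it stood at 751.1, 941.2 and 2075 in Trem1-/- mice, against 1303, 1611 and 1320 in WT mice, a difference of -0.17. In the inflamed intestine it averaged 43277 ± 9625 in Trem1-/- cells (n = 7) and 14943 ± 3641 in WT cells (n = 5), a difference of 1.53, so that the intestinal difference was the larger of the pair. Without WT marrow mouse 2 there were 0 calls, with Cxcl10 at -1.67 (adjusted p = 0.423) and H2-Ab1 at -3.62 (adjusted p = 0.206). Leaving out Trem1-/- marrow mouse 1 or 2 also gave 0 calls, and leaving out mouse 3 gave 1. Both tests share the marrow samples, so their calls are not independent.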

How the data were processed

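Sorted or isolated cells were profiled by NanoString barcode counting after multiplexed target enrichment, per the labels' protocols. The authors deposited barcode counts per probe, whole counts in some samples and, in others, expected counts: whole numbers times a multiplier of 1.33, 1.333 or 2, found from the values. The reason and the counting software were not given in the sources used here. Dividing the multiplier out gave whole numbers in all samples (tolerance 0.0001); in marrow the control probes were not multiplied. The authors' deposited normalised table, a score with no stated unit, equals the raw values times 1 factor per sample and entered as an alternative. Symbols were matched to the reference table by transcript for 69 targets and by symbol for 3. No molecular identifiers were used before amplification, and depth therefore covers counting error only.

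Each sample was scaled by its housekeeping level, the geometric mean over Actb, Gapdh and Rpl19, and the counts were tested two-sided with edgeR 4.0.16 (R 4.3.3, quasi-likelihood, Benjamini-Hochberg, threshold 0.05, prior count 1). A target was tested when above background in at least 3 samples. Fold changes carry the SE of the fit. P-values of the marrow fits measure the spread between these mice, with 3 per marrow group. The 28-sample fits used a spread per target shared by marrow and intestinal samples, which need not hold for marrow. For H2-Ab1 between the marrow genotypes, edgeR's adjusted p was 0.144 in the marrow fit and 0.00644 in the 28-sample one. Alternatives were DESeq2 1.42.0, limma 3.58.1 on log2(value + 1), other scalings, filters, blocks and left-out samples. Code was tested on simulated data. No 2 samples of a group were copies (lowest chi-square per degree of freedom 678). Same-numbered mice of the 2 marrow groups deviated together (r = 0.794, 0.197 and 0.464), although Trem1-/- mouse 2 and WT mouse 3 also correlated at 0.430. The labels give no litter or day. The main genotype fit was unpaired, and mouse number entered as a block only in an alternative. In the 28-sample fits the groups share only a number. Genes named were those with the 10 largest genotype differences, those without overlap, up to 4 per list by WT level, the 10 largest calls in each direction against control intestine and all interaction calls. Other targets were named after their values were seen. The members, lists, tests and the naming rule were chosen with earlier results of these data known. Tables were made in Python 3.11.15 with pandas 2.3.3 and numpy 2.4.6, permutation tests with scipy 1.17.1 and plots with matplotlib 3.10.9. Results of 2 targets are not reported here, though both entered the fits and the counts.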

Additional observations from a re-analysis of the deposited data

Results flagged for a closer look

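Tests of the difference between sources set 2 marrow genotype differences apart. H2-Ab1 was lower in Trem1-/- than in WT marrow by more than in the control intestine (-5.03, edgeR adjusted p = 0.0458) and in the inflamed intestine (-5.18, adjusted p = 0.0219). Cxcl10 differed between marrow and inflamed intestine by -4.83 (adjusted p = 0.0219) and Il10 by -1.70 (adjusted p = 0.0327), with an Il10 difference of -0.17 within marrow. All of these calls ended when WT marrow mouse 2 was left out.

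Single intestinal samples far from the rest of their group bear on the marrow comparisons through targets named there. WT control mouse 5 had 4723 normalised counts of Arg1, with 224.2 to 589.9 in the rest of its group, and 442.2 of Ccl7, with 71.3 to 115.8 in the rest. WT control mouse 1 had 144900 of Chil3, with 32556 to 64290 in the rest, and WT control mouse 3 had 32538 of Card9, with 20598 to 23841 in the rest. In Trem1-/- inflamed intestine, mouse 5 had 23278 of Il10, with 41523 to 52988 in the rest. Of 32 groups tested 5 were set apart in this way, where chance gives about 1 in 20. The groups of 3 marrow mice, WT mouse 2 among them, were not tested in this way.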

How the results depend on the processing

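The 0 genotype calls in marrow became 2 with positive-control scaling or DESeq2 and 1 without Rpl19 in the scaling or with all 28 samples in 1 fit; with single mice left out the count ran from 0 to 2. The calls were H2-Ab1 in each case and Cxcl10 where there were 2, all lower. Values of the opposite sign appeared for Siglec1 (1.37), Irf4 (0.040) and Csf1r (0.11) without WT mouse 2 and for Stat6 (0.016) with TMM. Against control intestine, the 3 higher calls became 16 with TMM or DESeq2, 8 with total counts or positive controls, 6 without Rpl19 and 18 in the authors' values, and the 23 lower calls became 14 with positive controls and 8 in the authors' values; left-out samples gave 2 to 3 and 20 to 25.

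The 1 interaction call against control intestine became 0 with TMM, total counts, positive controls, limma on either table, background subtraction, the multiplier class as a block and either class of marrow samples alone, and ran from 0 to 1 with samples left out. The 3 calls against inflamed intestine became 0 with positive controls, the authors' values or the unmultiplied marrow samples alone and 6 with DESeq2 (1 higher, 5 lower), and ran from 0 to 4 with samples left out (0 to 1 higher, 0 to 3 lower). With the mouse number as a replicate block, the pairing gave 0 genotype calls in marrow. Among the other 14 pairs of groups 20 of 54 same-numbered sample pairs correlated above 0.1 (r from -0.664 to 0.638) and in 0 did all, so in the 28-sample fit the block is a shared number only; it gave 4 higher and 22 lower against control intestine, 0 against control-intestine differences and 1 higher and 2 lower against inflamed-intestine differences. The 10 class calls became 1 with positive controls, 5 without Rpl19 and 16 with DESeq2; lower calls, 0 in the main setting, were 4 with TMM, 3 with total counts and 5 with DESeq2. With samples left out, higher calls ran from 0 to 13, lower from 0 to 6 and both together from 0 to 17. The cause was not tested; leaving samples out also lowers the number of mice.

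Targets near or not far above the background limits, among them Il1a, Il6, Itgax, Ccl7 and H2-Ab1 in Trem1-/- marrow, have folds whose size is uncertain. The multiplier class was not planned and was added after the data were seen.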
